A study of Saccharomyces cerevisiae with 12 samples.

Results

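The data concern how MnSOD-deficient *Saccharomyces cerevisiae* EG110 cells respond to aspirin (acetylsalicylic acid, ASA), taken across gene functions. The 6 EG110 arrays of the 12 in the series were compared: 3 of cells grown with 15 mM aspirin and 3 of untreated cells. For this comparison the EG103 arrays added only to the spread estimated in the fit. EG110 is the EG103 strain with its *SOD2* gene replaced by *TRP1*, and EG103 is a haploid laboratory strain of the mating type MATα that also carries leu2, his3, trp1 and ura3 mutations. Both groups of cells were grown aerobically for 48 h in rich ethanol (YPE) medium, and each array holds RNA of 1 biological replicate. Aspirin was added to the medium before inoculation and the pH of that medium was then brought to a set value with Trizma base, a step the labels give for the aspirin medium alone. The effect of aspirin therefore cannot be told apart from that of the buffer. A single deletion strain was used, so the response described is that of 1 strain background. Of 10928 probe sets in the table, the 5716 that carry an *S. cerevisiae* gene identifier and are not controls were tested. Where a gene is named, its value is that of its probe set, the group of short array probes that bind its transcript.

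Yeast cells growing on ethanol oxidise it to acetate, activate acetate to acetyl-CoA, and feed that into the glyoxylate and tricarboxylic acid (TCA) cycles, and from there into gluconeogenesis. The genes for this are switched on by Snf1 kinase and the activators Adr1 and Cat8 once glucose is gone, and repressors of the Mig family keep them off while it is present. Aspirin is a weak acid, and yeast meets weak acids with the regulator War1, which turns on the efflux pump Pdr12, and with the plasma membrane proton ATPase, which pumps protons out of the cell.

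Expression values are on a log2 scale, so a difference of 1 is a factor of 2, and the authors obtained them with RMA (robust multi-array average). Medians over the tested probe sets lay between 11.15 and 11.18 on the EG110 arrays. Probe sets with no *S. cerevisiae* gene gave the background of the arrays, with a 95th percentile of 5.26 to 5.30. *SOD2* (YHR008C), the deleted gene, stood at 4.81, 4.78 and 4.73 in aspirin-treated EG110 cells, against 4.99, 4.62 and 4.50 in untreated EG110 cells, all within that background, and at a mean of 14.30 ± 0.09 (SD, n = 3 arrays) in untreated EG103 cells. Of the genes that mark MATα cells, *MF(ALPHA)1* and *STE3* had means of 14.15 ± 0.06 with aspirin and 14.07 ± 0.05 without it and of 12.03 ± 0.12 with aspirin and 11.54 ± 0.11 without it in EG110 cells. The a-cell genes were not at background in these arrays either, with means of 7.29 ± 0.10 with aspirin and 8.18 ± 0.08 without it for *MFA2* and of 7.19 ± 0.10 with aspirin and 7.87 ± 0.20 without it for *AGA2*.

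Arrays that share a replicate number are called a replicate pair. A probe set was called when the limma adjusted p was below 0.05 and the fold change was at least 1.5. By this rule 685 of 5716 probe sets (12%) were called in EG110 cells, 337 higher with aspirin (5.9%) and 348 lower (6.09%). At the adjusted p alone, 27.2% of tested probe sets were higher and 25.1% lower, the shares to set beside such counts in the lists. In 682 of the 685 the values of the 3 aspirin-treated arrays did not overlap those of the 3 untreated ones, a separation also seen in 62.0% of all tested probe sets. Most changes were small. A change of at least 2-fold was found in 197 probe sets, 80 higher and 117 lower, of at least 4-fold in 29, 12 higher and 17 lower, and of at least 8-fold in 4. No called change lay between 8-fold and 16-fold, so those 4 stand apart: *PDR12*, *HXT4*, *PHO89* and *ADY2*. The tested probe sets were also ranked by their level in untreated EG103 cells and cut into quintiles. Those arrays do not enter the EG110 difference, but they enter the spread of the fit and so its adjusted p. Of the lowest quintile 20.8% were called, against 8.05% of the middle one and 11.3% of the highest. The calls of the lowest quintile were 132 higher and 106 lower, and those of the highest were 39 higher and 90 lower. Only 10 of the called probe sets had fewer than 6 EG110 arrays above the 95th percentile of the background.

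**Figure D1:**
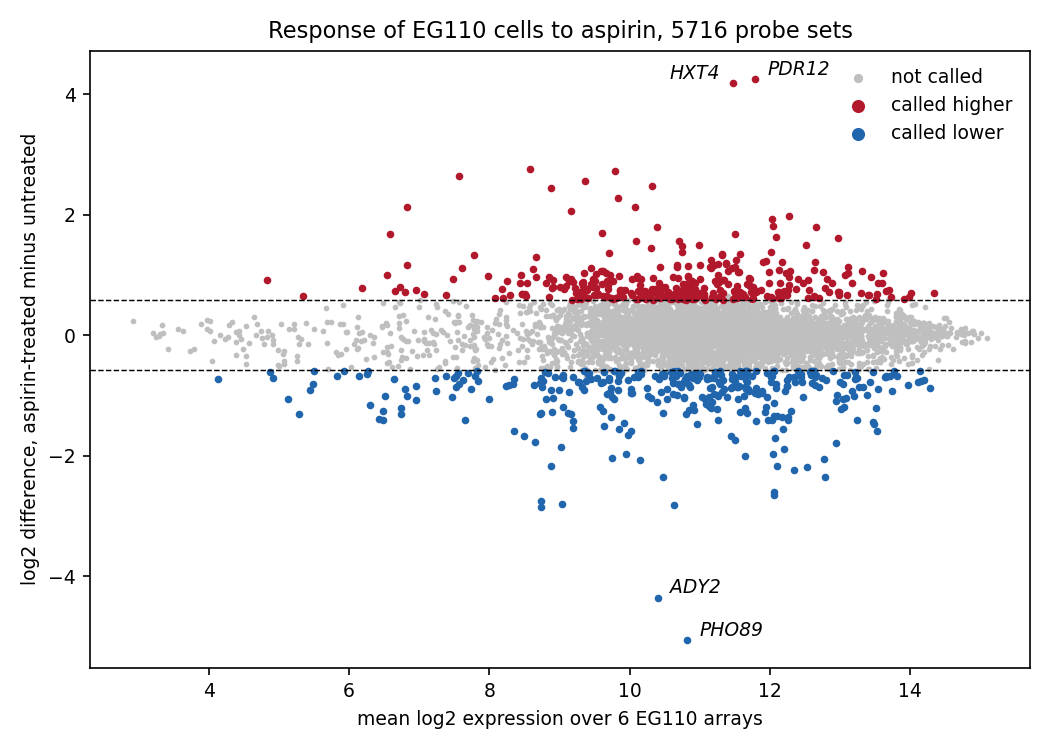
Each point is 1 of 5716 tested probe sets, with the mean log2 level over the 6 EG110 arrays on the x axis and the log2 difference of aspirin-treated minus untreated EG110 cells on the y axis. Coloured points are the 337 called higher and the 348 called lower, dashed lines mark 1.5-fold, and the 4 changes past 16-fold, which are *PDR12*, *HXT4*, *PHO89* and *ADY2*, lie far outside the rest.

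The strongest rises were in export of weak acids and in glucose uptake. *PDR12* (YPL058C), the ABC transporter that pumps carboxylate anions out of the cell, stood at 13.92, 13.83 and 14.00 in aspirin-treated EG110 cells, against 9.84, 9.54 and 9.61 in untreated EG110 cells. The groups were far apart, with a log2 difference of 4.25 ± 0.18 (SE), or 19.1-fold (adjusted p = 1.18e-08). The weak acid list held 14 probe sets, of which 6 were called higher and 0 lower, with a median log2 difference of 0.57 beside 0.02 over all tested probe sets. *TPO2* (YGR138C), a polyamine exporter, had values of 13.59, 13.52 and 13.55 with aspirin, against 12.04, 11.94 and 11.29 without it and rose 3.46-fold (adjusted p = 4.56e-06). Smaller rises were seen in *TPO4* (0.84), in *TPO1* (0.62) and in *HSP30* (0.69), the small membrane protein that restrains the proton ATPase. For *TPO3*, the probe set that also lists *TPO2* was called at 0.97, whereas the one for *TPO3* alone differed by 0.64 (adjusted p = 0.103), so the called value cannot be assigned to *TPO3*. The regulator *WAR1* differed by 0.50 (adjusted p = 4.45e-04), below the fold threshold, and *HAA1*, another transcription factor of the weak acid response, by 0.16. Among 23 probe sets for multidrug transporters and their regulators, *QDR2* (0.99), *SNQ2* (0.87) and *RSB1* (0.59) rose, while *ATR1* (-0.64) and *PDR11* (-0.64) fell. The main multidrug pump gene *PDR5* differed by 0.36 (adjusted p = 1.86e-04). When arrays were left out, *TPO1* (0.46 without untreated replicate 3 or replicate pair 3), *HSP30* (0.53 to 0.61 without untreated replicate 2 or replicate pair 1 or 2, adjusted p up to 0.0605) and *RSB1* (0.53 to 0.58 without aspirin-treated replicate 3 or untreated replicate 1 or 3 or replicate pair 1 or 3) were no longer called. Without some arrays, *ATR1* (-0.53 to -0.48 without untreated replicate 2 or replicate pair 2) and *PDR11* (-0.57 without replicate pair 3) were no longer called. With arrays removed, *TPO3* (0.80 without replicate pair 3) passed the thresholds. *TPO1* (0.62, adjusted p = 0.0523) and *HSP30* (0.69, adjusted p = 0.0725) were not called with the methods' t-test after adjustment. *RSB1* (0.57) was not called after centring each array on its median. *TPO3* (0.64, adjusted p = 0.0209) was called with the methods' t-test after adjustment. *TPO3* (0.64, adjusted p = 0.00217) was called in a limma fit of the EG110 arrays alone. *TPO3* (0.64, adjusted p = 0.0487) was called in the limma fit with the replicate block.

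Some glucose carrier genes rose in cells that had no added glucose. *HXT4* (YHR092C), a hexose transporter that is on at low glucose, had values of 13.48, 13.54 and 13.68 in aspirin-treated EG110 cells, against 9.66, 9.29 and 9.18 in untreated EG110 cells. The difference was 4.19 ± 0.10 on the log2 scale, 18.2-fold (adjusted p = 3.29e-10), and no array of one group came near the other. Of the 23 probe sets for hexose carriers, their sensors and repressors, 6 rose and 3 fell. Those that rose with it were *HXT8* (1.68), *HXT3* (1.12), the sensor gene *RGT2* (0.76), a probe set shared by *HXT6* and *HXT7* (0.63) and *MTH1* (1.25), whose product keeps *HXT* genes repressed when glucose is absent. *GAL2* (-1.06), *HXT14* (-0.82) and *HXT5* (-0.70), the last of these known for expression in slow-growing cells, fell. *HXT1*, which needs high glucose, differed by -0.37, and *HXT2* varied so much between replicates that its difference of 0.41 was not detectable (adjusted p = 0.489). *HXK2*, the hexokinase that takes part in glucose repression, rose by 0.87, and *PFK27*, a kinase whose sugar phosphate product activates glycolysis, rose by 1.37. The minor pyruvate kinase gene *PYK2* fell by 1.24. In fits that lacked arrays, *HXT7* (0.58 without replicate pair 1) was no longer called.

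Repressors of the Mig and Nrg families split. *MIG2* (YGL209W) had values of 11.19, 11.23 and 11.07 in aspirin-treated EG110 cells, against 8.76, 8.75 and 7.78 in untreated EG110 cells, and the third untreated array was the lowest of its group. *MIG2* rose 6.65-fold (log2 difference 2.73 ± 0.23, adjusted p = 2.24e-06). *NRG1* also rose (0.92), whereas *MIG3* (-0.76) and *NRG2* (-0.78) fell, as did *REG2* (-1.03), a regulatory subunit of the Glc7 phosphatase. *MIG1* itself differed by 0.14 (adjusted p = 0.305) and the kinase gene *SNF1* by -0.04, so neither was called. Among 17 activators of growth on non-fermentable carbon 1 was called: *SIP4*, a zinc cluster activator of gluconeogenic genes, fell by 0.89. *ADR1* differed by -0.01, *CAT8* by 0.19 and *HAP4*, the limiting subunit of the respiratory activator complex, by 0.56 (adjusted p = 3.56e-05). On fewer arrays, *HAP4* (0.62 to 0.63 without untreated replicate 3 or replicate pair 3) passed the thresholds.

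Carriers and enzymes of 2-carbon metabolism fell well beyond the acetyl-CoA genes the study selected. *ADY2* (YCR010C), the plasma membrane acetate permease, had values of 8.33, 7.98 and 8.35 in aspirin-treated EG110 cells, against 12.53, 12.82 and 12.38 in untreated EG110 cells, with no overlap, a log2 difference of -4.35 ± 0.16 and a 20.5-fold fall (adjusted p = 3.52e-09). Its paralogues *ATO3* (-2.65), an ammonium exporter, and *ATO2* (-0.77) fell too, and so did the mitochondrial dicarboxylate carrier gene *DIC1* (-0.59), which gave 4 lower and 0 higher among 14 carboxylate carriers. *JEN1*, the lactate and pyruvate permease gene, differed by -0.01 (adjusted p = 0.917). In the glyoxylate and gluconeogenesis list 6 of 14 probe sets were called lower and 0 higher, with a median of -0.54. *ICL1* (YER065C), which encodes isocitrate lyase, the first enzyme particular to the glyoxylate cycle, stood at 13.79, 13.79 and 13.91 with aspirin, against 14.60, 14.57 and 14.55 without it and fell 1.67-fold (adjusted p = 3.74e-07). The others were the mitochondrial citrate synthase gene *CIT3* (-1.10), *PCK1* (-0.88) and *FBP1* (-0.82), the genes of the gluconeogenic enzymes phosphoenolpyruvate carboxykinase and fructose bisphosphatase, *MDH2* (-0.76) and *IDP3* (-0.63). Malate synthase, encoded by *MLS1*, had a difference of -0.56 (adjusted p = 2.87e-06), just inside 1.5-fold and so not called. After leaving out arrays, *DIC1* (-0.58 to -0.54 without aspirin-treated replicate 2 or untreated replicate 2 or replicate pair 2) was no longer called. When arrays were left out, *MLS1* (-0.61 to -0.60 without aspirin-treated replicate 3 or replicate pair 3) passed the thresholds.

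All 8 acetyl-CoA genes chosen by the study fell, between -0.68 for *SFC1* and -2.18 for *CRC1*, but because they were picked for this on the same arrays the count is no independent evidence. Outside them, the aldehyde dehydrogenase genes *ALD5* (-1.02), *ALD2* (-0.69) and *ALD3* (-0.65) fell among 15 alcohol and aldehyde dehydrogenases. The main acetaldehyde dehydrogenase genes had smaller differences, -0.34 for *ALD4* and -0.23 for *ALD6*, with adjusted p-values of 2.21e-04 and 0.00224. Peroxisomal beta-oxidation showed the same sign: 3 of 13 probe sets fell and 0 rose, with a median of -0.48. They were *ECI1* (-0.95) and *DCI1* (-0.72), of the isomerase family, and the thiolase gene *POT1* (-0.84). Counting by adjusted p alone, which 25.1% of tested probe sets passed in the lower direction, 10 of these 13 were lower. In contrast, none of 18 fatty acid synthesis and desaturation probe sets was called by limma. At the adjusted p alone 6 were higher and 2 lower, beside 27.2% and 25.1% of all tested probe sets. *FAT3* (YKL187C), which is required for fatty acid uptake, fell by 1.55 outside any list. Without some arrays, *ALD3* (-0.56 without aspirin-treated replicate 2) was no longer called. *ALD3* (-0.58) was not called after quantile normalization.

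**Figure D2:**
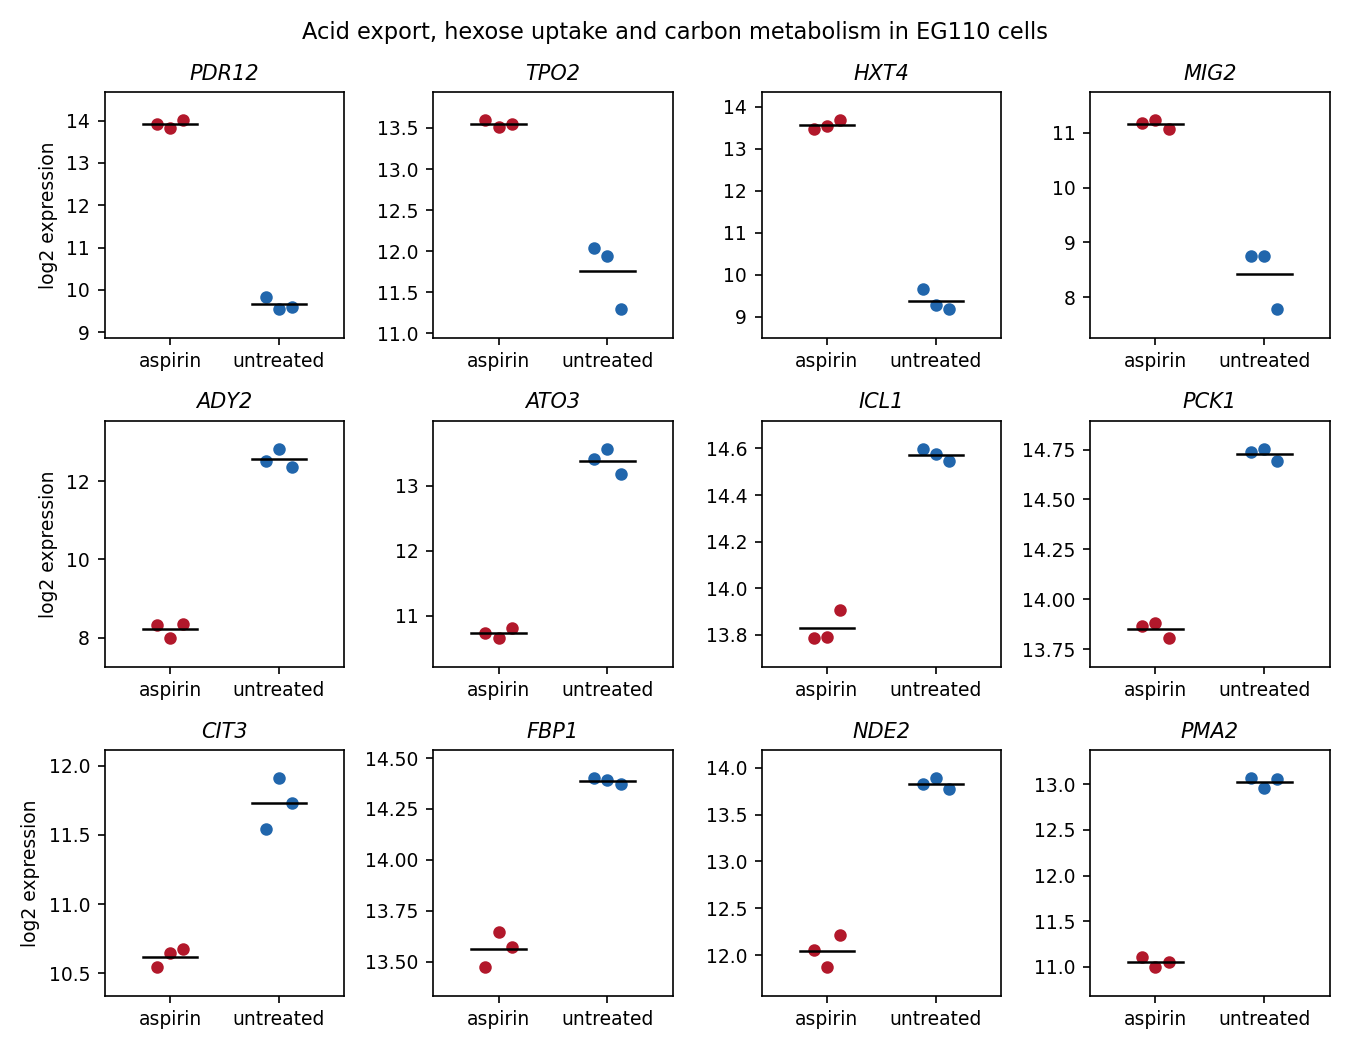
Log2 expression on the 6 EG110 arrays for 12 genes of acid export, hexose uptake, 2-carbon metabolism, NADH oxidation and proton export, with the 3 aspirin-treated arrays (red) left of the 3 untreated arrays (blue) in each panel, bars at the group means and y axes spanning different ranges. In all 12 panels the points of the groups do not overlap, a separation also seen in 62.0% of all tested probe sets. The distance is widest for *PDR12*, *HXT4* and *ADY2*.

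The respiratory genes themselves were called in both directions, and most of their differences were positive. Of 42 nuclear-encoded respiratory chain and ATP synthase probe sets, 2 rose and 4 fell, beside 5.9% and 6.09% of all tested probe sets. Of the 42, 35 had a positive sign and 22 were higher at the adjusted p alone, against 27.2% of all tested probe sets. The median was 0.15. *NDE1* (YMR145C), one of a pair of dehydrogenases that oxidise cytosolic NADH at the outer face of the inner membrane, had values of 14.02, 13.94 and 13.97 with aspirin, against 13.15, 12.98 and 13.18 without it and rose by 0.87 ± 0.10 (adjusted p = 3.32e-05). *NDE2* (YDL085W), the other of the pair, had values of 12.05, 11.87 and 12.21 with aspirin, against 13.83, 13.89 and 13.77 without it and fell by 1.78 (adjusted p = 1.98e-08). *NDI1*, which oxidises NADH of the matrix, rose by 0.72. The cytochrome oxidase subunit gene *COX5B*, which is normally the hypoxic isoform, fell (-0.74), while its aerobic counterpart *COX5A* differed by 0.11 (adjusted p = 0.156). The lactate dehydrogenase genes *DLD3* (-1.21) and *CYB2* (-0.80) fell as well. In the TCA cycle list *IDH1* (0.76) and *IDH2* (0.73), which encode both subunits of NAD-dependent isocitrate dehydrogenase, rose together, the kinase gene *PKP2* of pyruvate dehydrogenase fell (-0.64), and the remaining 21 of 24 probe sets were not called. *SHH4* (YLR164W), a paralogue of a succinate dehydrogenase membrane subunit, fell from outside the list, at 11.39, 11.19 and 11.11 with aspirin, against 13.54, 13.47 and 13.39 without it and a log2 difference of -2.23 ± 0.11. No group was called in mitochondrial translation or import beyond *MRP20* (-0.60) and *MAS1* (-0.59), 1 of 69 and 1 of 30, though 27 of the 69 mitochondrial ribosome probe sets were lower at the adjusted p alone and 2 were higher. With arrays removed, *PKP2* (-0.53 without untreated replicate 3 or replicate pair 3), *MRP20* (-0.58 to -0.55 without untreated replicate 1 or 2 or replicate pair 1 or 2) and *MAS1* (-0.58 to -0.53 without aspirin-treated replicate 2 or untreated replicate 3 or replicate pair 3) were no longer called.

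Several paralogue pairs moved in opposite directions, and the 8 described were chosen after their values had been seen. *PMA1* (YGL008C), the essential plasma membrane proton ATPase, stood at 14.00, 14.04 and 14.07 with aspirin, against 13.23, 13.11 and 13.18 without it and rose 1.82-fold (adjusted p = 1.31e-04). Its minor isoform *PMA2* (YPL036W) stood at 11.10, 11.00 and 11.05 with aspirin, against 13.06, 12.96 and 13.06 without it and fell 3.93-fold (adjusted p = 1.43e-07). *PMP2*, a small regulator of the pump, rose by 0.61, and none of 18 vacuolar proton ATPase probe sets was called by limma, with 1 higher and 4 lower at the adjusted p alone. Of the sulfate permeases *SUL2* rose (1.49) and *SUL1* fell (-2.85). Of the water channels *AQY2* rose (1.04) and *AQY1* fell (-2.35), which is known as a spore channel. The peroxisomal import receptors *PEX21* (0.84) and *PEX18* (-0.95) also moved apart, and so did the pyruvate decarboxylases *PDC5* (1.12) and *PDC6* (-0.70), in addition to *NDE1* with *NDE2*, *MIG2* with *MIG3* and *NRG1* with *NRG2*. In EG103 cells *SUL2* (-0.77) and *PMA2* (0.70) were called with the opposite sign. *PMP2* (0.58) was not called after quantile normalization.

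**Figure D3:**
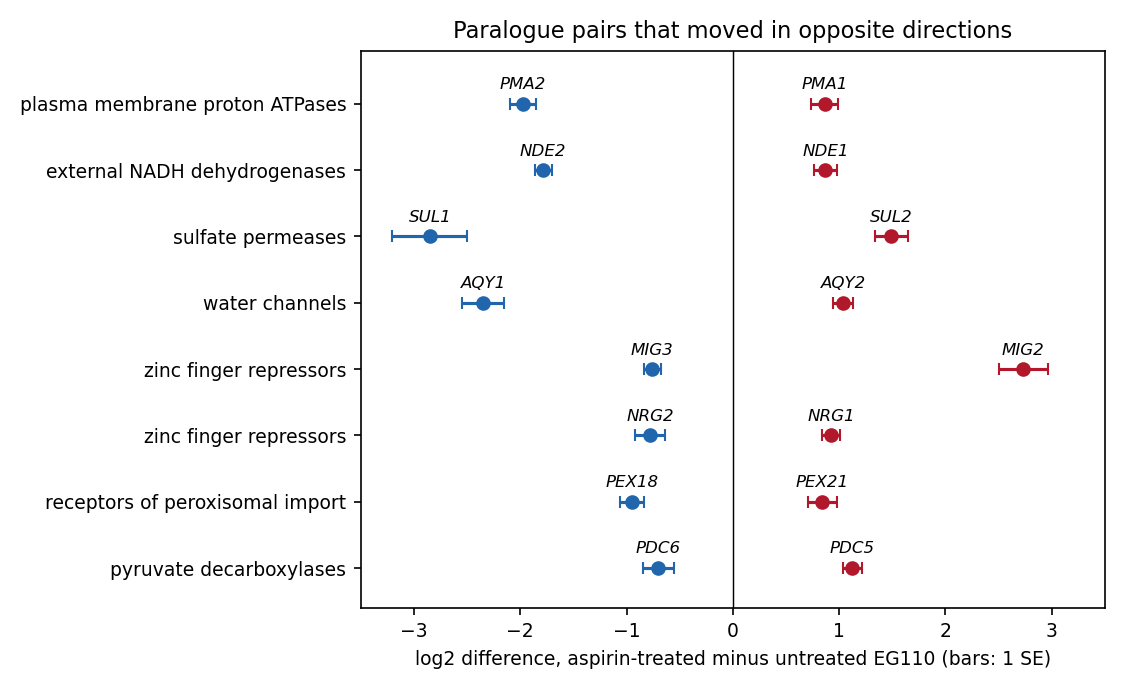
Log2 difference of aspirin-treated minus untreated EG110 cells for 8 paralogue pairs chosen after their values were seen, with the member that rose (red) and the member that fell (blue) in each row and bars of 1 standard error from limma. Red points lie between 0.84 and 2.73 and blue points between -0.70 and -2.85.

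Uptake genes for phosphate, sulfate, amino acids and ammonium were among the largest falls. *PHO89* (YBR296C), the sodium-coupled phosphate transporter, had values of 8.45, 8.25 and 8.16 in aspirin-treated EG110 cells, against 13.59, 13.95 and 12.48 in untreated EG110 cells. It had the largest change of all tested probe sets in EG110 cells, -5.05 ± 0.28 on the log2 scale, or 33.2-fold (adjusted p = 7.66e-08). *PHO84* (YML123C), the high-affinity proton-coupled phosphate transporter, stood at 10.84, 10.60 and 10.49 with aspirin, against 12.43, 13.20 and 11.49 without it, and *SPL2*, which restrains low-affinity phosphate uptake, at 7.26, 7.37 and 7.45 with aspirin, against 9.98, 10.73 and 9.62 without it. In each of the 3 genes the third untreated array was the lowest of its group, and still above all aspirin-treated arrays. Their log2 differences were -1.73 ± 0.34 for *PHO84* and -2.75 ± 0.23 for *SPL2*. *GIT1*, a glycerophosphoinositol permease gene, fell by 1.51, and *PHM8*, a nucleotide phosphatase gene, rose (0.94). Other genes of the phosphate regulon were not called: the acid phosphatase gene *PHO5* differed by -0.09, the polyphosphate polymerase component gene *VTC3* by -0.08 and the regulator genes *PHO4* and *PHO81* by -0.07 and 0.26, so that 4 of 23 probe sets were lower and 1 was higher. *PHO84* (-1.73, adjusted p = 0.0580) was not called with the methods' t-test after adjustment.

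Sulfur genes went both ways, 6 higher and 6 lower of 39, with 3 higher when untreated replicate 3 was left out. *SUL1* had values of 7.54, 7.49 and 6.90 with aspirin, against 10.75, 10.68 and 9.05 without it, again with the lowest untreated value on the third array, and *SUL2* of 11.84, 11.73 and 11.66 with aspirin, against 10.60, 10.17 and 9.98 without it. Higher with *SUL2* were the sulfate assimilation genes *MET5* (0.76), *MET8* (0.76) and *MET14* (0.62), the homoserine acetyltransferase gene *MET2* (0.83) and the methionine permease gene *MUP3* (0.70). Lower with *SUL1* were genes around S-adenosylmethionine and methyl groups: the permease gene *SAM3* (-1.18), the methyltransferase gene *SAM4* (-0.81 in the probe set for that gene alone), the synthetase gene *SAM1* (-0.67) and the methylenetetrahydrofolate reductase gene *MET13* (-1.0). The regulator *MET4* differed by -0.07 (adjusted p = 0.475). In fits that lacked arrays, *MET8* (0.52 to 0.55 without untreated replicate 3 or replicate pair 3), *MET14* (0.37 to 0.54 without aspirin-treated replicate 2 or untreated replicate 3 or replicate pair 3) and *MET2* (0.53 to 0.56 without untreated replicate 3 or replicate pair 3) were no longer called. On fewer arrays, *SAM1* (-0.56 to -0.53 without aspirin-treated replicate 3 or untreated replicate 2) was no longer called. *MET8* (0.76, adjusted p = 0.0711), *MET14* (0.62, adjusted p = 0.144), *MET2* (0.83, adjusted p = 0.0790) and *SAM1* (-0.67, adjusted p = 0.0835) were not called with the methods' t-test after adjustment.

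Among 27 amino acid and ammonium permease probe sets, 9 fell and 0 rose, with a median of -0.25. *DIP5* (YPL265W), a permease of acidic amino acids, stood at 10.71, 10.67 and 10.93 with aspirin, against 13.28, 13.48 and 13.32 without it, with a log2 difference of -2.60 ± 0.08 (adjusted p = 1.34e-09). *GAP1* (YKR039W), the general amino acid permease, stood at 11.33, 10.47 and 10.12 with aspirin, against 12.98, 12.71 and 12.23 without it, a difference of -2.0 ± 0.28 with wide spread but no overlap. *ALP1* (-2.08), *PUT4* (-2.05), *AGP3* (-1.26), *BAP2* (-1.0) and the ammonium permease genes *MEP1* (-1.02) and *MEP2* (-0.67) fell as well. The 34 probe sets of nitrogen catabolite-repressed genes had 6 lower and 0 higher, of which *GAP1*, *PUT4*, *MEP1* and *MEP2* are those permeases and only *DAL1* (-0.96) and *DAL4* (-0.77) are further genes. The activator *GLN3* differed by -0.11 and the repressor *DAL80* by -0.57 (adjusted p = 0.00495), neither of them called. In amino acid synthesis 9 of 69 probe sets fell, led by *ARG4* (-1.06), *BAT2* (-0.93), *HIS1* (-0.86) and *HIS4* (-0.77), and 2 rose, *HIS6* (0.91) and *PRO1* (0.74). After leaving out arrays, *MEP2* (-0.70 to -0.54 without aspirin-treated replicate 2 or 3 or untreated replicate 1 or 2 or replicate pair 1 or 2, adjusted p up to 0.102) and *DAL1* (-0.79 without replicate pair 2, adjusted p = 0.0650) were no longer called. When arrays were left out, *DAL80* (-0.66 to -0.61 without aspirin-treated replicate 1 or 2 or untreated replicate 2 or replicate pair 1 or 2) passed the thresholds. *MEP2* (-0.67, adjusted p = 0.0859) and *DAL1* (-0.96, adjusted p = 0.0798) were not called with the methods' t-test after adjustment. *DAL80* (-0.63, adjusted p = 0.00240) was called after quantile normalization. *DAL80* (-0.59, adjusted p = 0.00410) was called after centring each array on its median.

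Several one-carbon and purine genes fell. Of 21 purine synthesis probe sets 5 were lower and 0 higher. *ADE17* (YMR120C), which catalyses the last steps to inosine monophosphate, stood at 11.24, 11.19 and 11.23 with aspirin, against 12.99, 12.76 and 13.04 without it and fell 3.27-fold (adjusted p = 8.07e-09). *SHM2* (YLR058C), the cytosolic serine hydroxymethyltransferase, stood at 12.54, 12.55 and 12.55 with aspirin, against 14.02, 13.93 and 13.90 without it and fell 2.65-fold (adjusted p = 2.10e-09). *ADE1* (-1.13), *ADE2* (-0.93) and *ADE13* (-0.67) were the others. Outside the lists, and named after their values had been seen, the 3 genes particular to the glycine cleavage system fell: *GCV1* by 1.90, *GCV2* (-0.85) and *GCV3* (-0.70). The transcription factor *BAS1*, which activates the *ADE* genes, differed by 0.51 (adjusted p = 0.00403). Without some arrays, *BAS1* (0.66 to 0.68 without untreated replicate 2 or replicate pair 2) passed the thresholds.

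**Figure D4:**
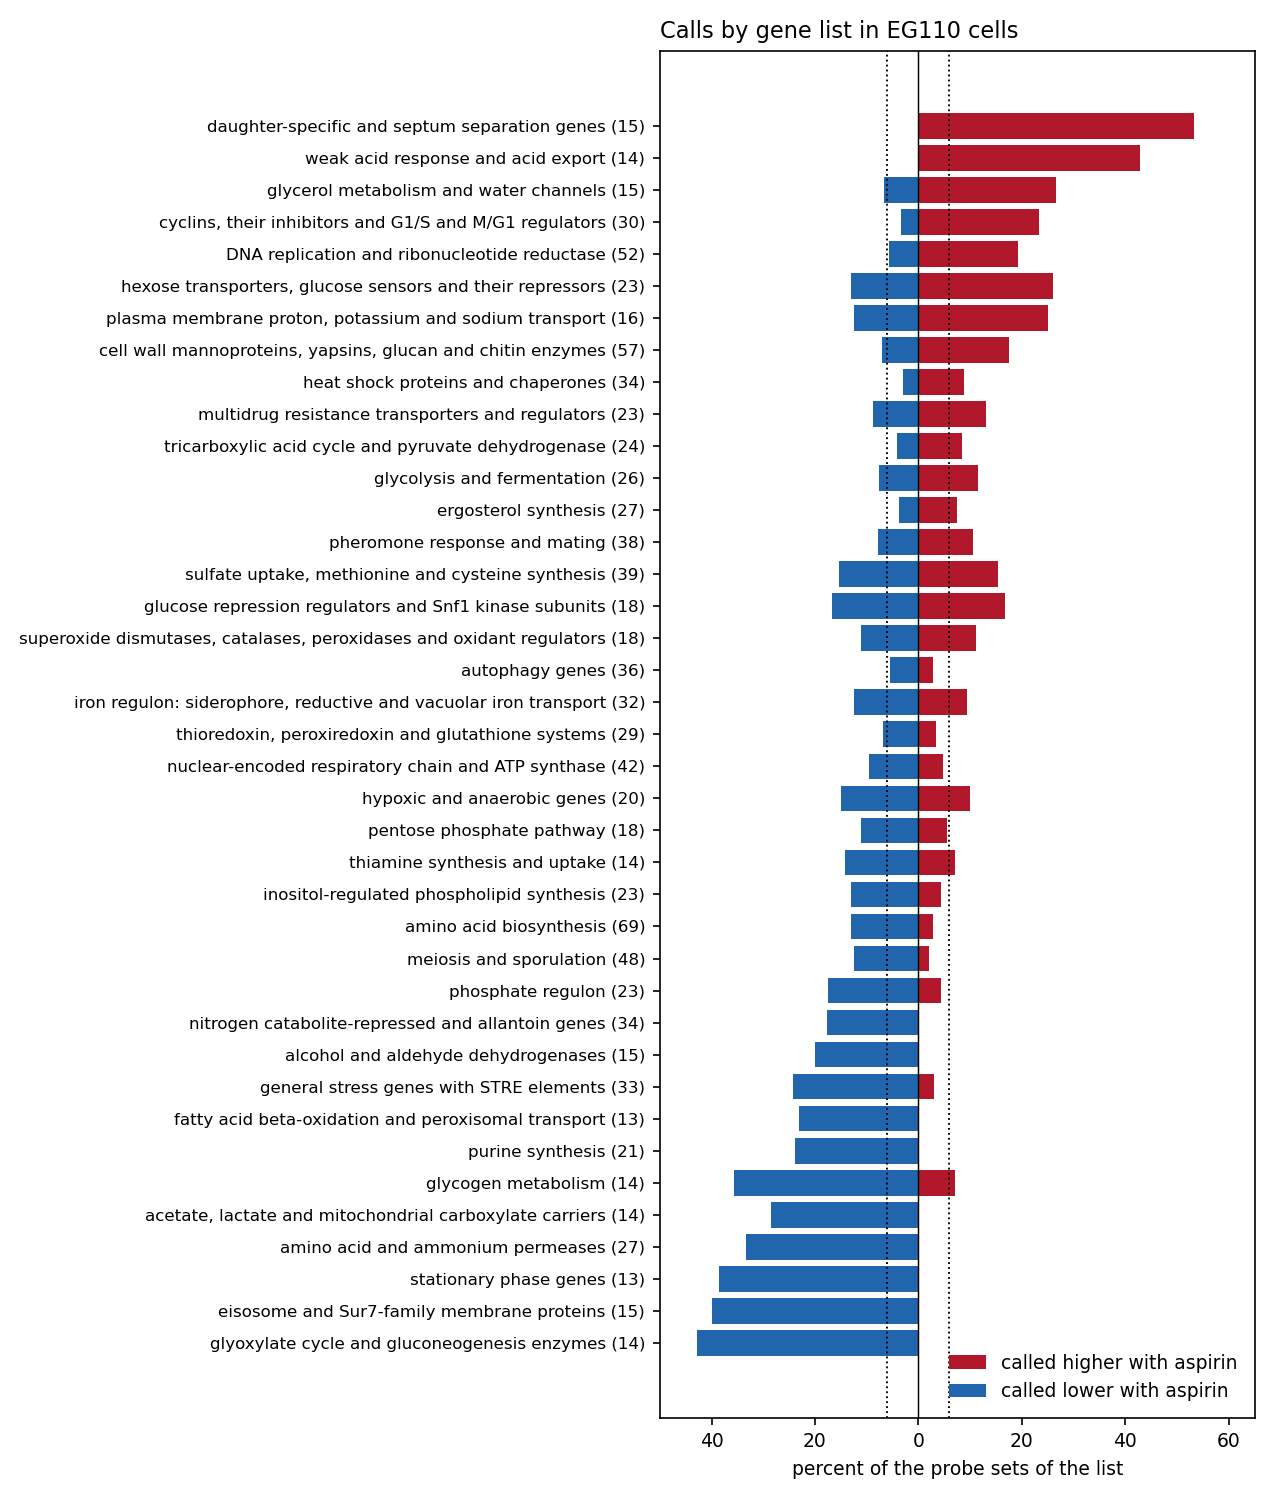
Share of the probe sets of each gene list called higher (red, to the right) or lower (blue, to the left) with aspirin in EG110 cells, in percent, with the number of probe sets in parentheses, for the lists with at least 10 probe sets and at least 3 calls. Dotted lines mark the 5.9% and 6.09% of all tested probe sets called higher and lower, and septum separation genes reach the highest share on the right.

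Genes of cell separation and of the G1 and S phases were called mostly on the higher side. In the septum and daughter cell list 8 of 15 probe sets were called higher and 0 lower, all 15 had a positive sign, and the median was 0.74. *DSE2* (YHR143W), a daughter-specific protein with a glucanase-like sequence, stood at 10.90, 10.95 and 11.08 in aspirin-treated EG110 cells, against 8.68, 9.27 and 8.15 in untreated EG110 cells, with a 4.86-fold rise (adjusted p = 3.49e-06). *SCW11* (YGL028C), a cell wall glucanase, stood at 11.06, 11.08 and 11.27 with aspirin, against 8.90, 9.55 and 8.58 without it, and *CTS1*, the endochitinase that cuts the septum, at 11.97, 11.95 and 12.03 with aspirin, against 10.47, 11.11 and 10.38 without it. The groups did not overlap in these 3 genes. *DSE1* (2.76), the glucanase gene *DSE4* (2.05), *EGT2* (1.57), *SUN4* (1.56) and *AMN1* (0.74) completed the 8. The regulator *SWI5* differed by -0.07. Because RNA came from whole cultures, more cells at 1 stage of the cell cycle and more transcript per cell cannot be told apart.

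Of 30 cyclins and cell cycle regulators 7 rose and 1 fell, but 4 rose without aspirin-treated replicate 2 and 3 without untreated replicate 2. The G1 and S cyclin genes *CLB6* (0.98), *PCL2* (0.82), *CLN2* (0.71) and *PCL1* (0.67) rose with the activator *SWI4* (0.80) and the repressors *YOX1* (0.80) and *YHP1* (0.65), and the mitotic cyclin gene *CLB1* fell by 1.27. In the DNA replication list 10 of 52 probe sets were higher and 3 lower, 44 had a positive sign, and the median was 0.29. *RNR1* (YER070W), the large subunit of ribonucleotide reductase, stood at 12.28, 12.68 and 12.08 with aspirin, against 10.95, 10.21 and 10.83 without it and rose 3.20-fold (adjusted p = 2.09e-05), whereas the small subunit genes *RNR2* (-0.67) and *RNR4* (-0.59) fell. *POL1* (1.19) and *POL12* (0.65), of DNA polymerase alpha, the sliding clamp gene *POL30* (1.06), *MCM6* (0.93) and *CDC45* (0.66) of the replicative helicase, and the licensing factor gene *CDC6* (1.07) rose. Histone genes did so in 1 of 10 probe sets, *HTB2* (0.64). Outside the lists, *HO* (YDL227C), the endonuclease gene of mating type switching, rose by 1.48, and *CBF2* (YGR140W), a kinetochore gene, by 1.45. With arrays removed, *CLN2* (0.26 to 0.85 without aspirin-treated replicate 2 or untreated replicate 2 or replicate pair 1 or 2, adjusted p up to 0.177), *PCL1* (0.21 to 0.80 without aspirin-treated replicate 1 or 2 or untreated replicate 2 or replicate pair 1 or 2, adjusted p up to 0.205) and *YOX1* (0.45 to 0.57 without untreated replicate 2 or replicate pair 2) were no longer called. In fits that lacked arrays, *YHP1* (0.40 to 0.57 without aspirin-treated replicate 2 or untreated replicate 2 or replicate pair 2, adjusted p up to 0.0568), *RNR4* (-0.58 to -0.54 without aspirin-treated replicate 3 or untreated replicate 1 or 2 or replicate pair 3) and *CDC45* (0.57 without replicate pair 3) were no longer called. On fewer arrays, *HTB2* (0.31 to 0.53 without aspirin-treated replicate 2 or untreated replicate 2 or replicate pair 2) was no longer called. *CLB6* (0.98, adjusted p = 0.0636), *CLN2* (0.71, adjusted p = 0.161), *PCL1* (0.67, adjusted p = 0.197), *YOX1* (0.80, adjusted p = 0.0835), *YHP1* (0.65, adjusted p = 0.0618) and *HTB2* (0.64, adjusted p = 0.114) were not called with the methods' t-test after adjustment. *CLN2* (0.71, adjusted p = 0.0555) and *PCL1* (0.67, adjusted p = 0.0781) were not called in a limma fit of the EG110 arrays alone.

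Cell wall genes were called in 14 of 57 probe sets, 10 higher and 4 lower, and 2 were lower without aspirin-treated replicate 1 or untreated replicate 2. *YPS3* (YLR121C), a yapsin protease of the cell surface, stood at 13.06, 12.99 and 12.93 with aspirin, against 11.37, 10.74 and 11.08 without it and rose 3.81-fold (adjusted p = 2.32e-07). *MKC7* (0.96), another yapsin gene, the transglycosylase gene *CRH1* (1.08), *PST1* (1.04), the wall stress sensor gene *MID2* (0.92), the kinase gene *SLT2* (0.75) of the cell integrity pathway and the chitin synthase genes *CHS1* (0.81) and *CHS3* (0.72) rose. The chitin deacetylase gene *CDA2* (-1.97), which acts in spore wall formation, and the mannoprotein genes *TIP1* (-1.20) and *CWP1* (-0.59) fell. The *TIP1* relatives *TIR1* (-1.41) and *TIR3* (-0.94) fell too, whereas *TIR2* rose by 0.63, and these are hypoxic genes. *ROX1*, the repressor of hypoxic genes, had values of 13.24, 13.27 and 13.27 with aspirin, against 11.75, 11.69 and 11.84 without it and rose 2.82-fold (adjusted p = 1.87e-08), and *ANB1*, one of its classic targets, fell by 1.29. After leaving out arrays, *CWP1* (-0.58 to -0.48 without aspirin-treated replicate 1 or untreated replicate 1 or 2 or replicate pair 1 or 2) and *TIR2* (0.48 to 0.57 without aspirin-treated replicate 2 or untreated replicate 2 or replicate pair 2) were no longer called. *TIP1* (-1.20, adjusted p = 0.0655) was not called with the methods' t-test after adjustment. *CWP1* (-0.51) was not called after quantile normalization.

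**Figure D5:**
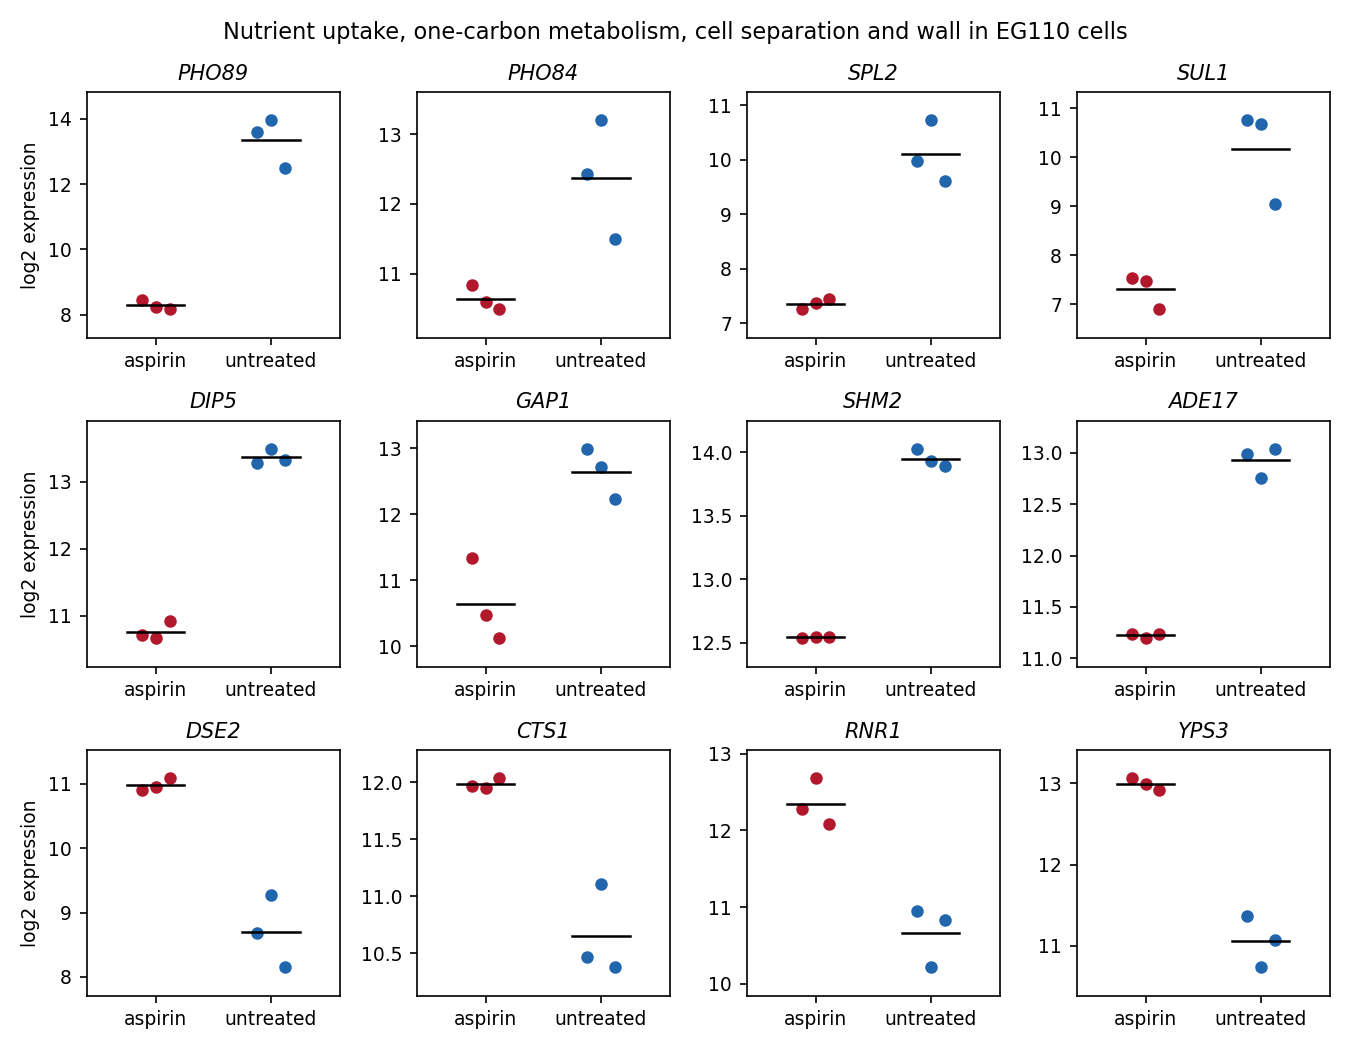
Log2 expression on the 6 EG110 arrays for 12 genes of nutrient uptake, one-carbon metabolism, cell separation, DNA synthesis and the cell wall, with the 3 aspirin-treated arrays (red) left of the 3 untreated arrays (blue) in each panel, bars at the group means and y axes spanning different ranges. The untreated arrays are widest apart for *PHO84*, *SUL1* and *PHO89*, where the third of them is lowest. No panel shows overlap, as in 62.0% of all tested probe sets.

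Stress and reserve genes were mostly on the lower side. Of 33 general stress probe sets 8 fell and 1 rose, the regulator gene *MSN4* (0.79). *CTT1* (YGR088W), the cytosolic catalase, stood at 12.60, 12.36 and 12.59 with aspirin, against 13.54, 13.37 and 13.80 without it and fell 2.07-fold (adjusted p = 5.30e-04), and *SDP1* (-1.36), *PHM7* (-1.02), *RTN2* (-0.99) and the glutamate decarboxylase gene *GAD1* (-0.77) fell with it. Among 13 stationary phase probe sets 5 were lower and 0 higher. *SPG4* (YMR107W) stood at 11.44, 11.66 and 11.74 with aspirin, against 13.88, 14.05 and 13.97 without it, a fall of 5.11-fold (adjusted p = 1.82e-08). The adjacent genes *SNZ1* (-2.19) and *SNO1* (-2.16), which make vitamin B6, *SPG1* (-1.23) and *FMP45* (-1.09) were the others. Eisosomes, the membrane furrows that Pil1 and Lsp1 build, had 6 lower and 0 higher of 15, among them *YNL194C* (-1.40), *FHN1* (-1.02), *EIS1* (-0.78), *SUR7* (-0.70) and *LSP1* (-0.60). In glycogen metabolism 5 of 14 probe sets were lower, *GSY1* (-1.04), *GLC3* (-0.89), *GDB1* (-0.79), *PIG2* (-0.68) and *GLG1* (-0.64), 1 was higher, *PCL10* (0.65), and the median was -0.53. Without untreated replicate 2 the number lower was 8. The main glycogen synthase gene *GSY2* differed by -0.19 (adjusted p = 0.0971). Of 10 trehalose probe sets 1 was called, the trehalase gene *NTH2* (0.91), while at the adjusted p alone 2 were higher and 4 lower, the synthesis genes *TPS1* (-0.42) and *TPS2* (-0.49) among the lower. When arrays were left out, *LSP1* (-0.56 to -0.55 without aspirin-treated replicate 2 or replicate pair 2) and *GLG1* (-0.58 to -0.53 without aspirin-treated replicate 2 or untreated replicate 3 or replicate pair 3) were no longer called. *LSP1* (-0.57) was not called after quantile normalization.

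Antioxidant genes were called in both directions. Of 18 probe sets for superoxide dismutases, catalases, peroxidases and their regulators, 2 rose and 2 fell, or 22.2% called beside 12% of all tested probe sets. The rises were the old yellow enzyme genes *OYE2* and *OYE3*, whose products reduce unsaturated carbonyl compounds. *OYE3* (YPL171C) stood at 12.94, 12.70 and 12.70 with aspirin, against 11.53, 11.58 and 11.59 without it, a rise of 1.21 ± 0.15 (adjusted p = 3.60e-05), and *OYE2* rose by 1.14. The falls were *CTT1* and the peroxidase gene *HYR1* (-0.62). *SOD1*, the cytosolic superoxide dismutase gene, differed by -0.03 (adjusted p = 0.596), the regulator *YAP1* by 0.11 and the peroxisomal catalase gene *CTA1* by -0.53. In the thioredoxin and glutathione list *GRX8* (1.16) rose and the peroxiredoxin gene *TSA2* (-1.67) and the transferase gene *GTT1* (-0.81) fell, 3 of 29. *GND1*, which forms NADPH in the pentose phosphate pathway, rose by 1.17. Of 34 heat shock and chaperone probe sets 3 rose, *BTN2* (0.86), *HSP30* and *SSA2* (0.66), and *SSA3* fell by 1.01. Over all tested probe sets 5.9% were called higher and 6.09% lower. Most of the 34 differences were positive. The share higher at the adjusted p alone was above the 27.2% of all tested probe sets, and fewer were lower. Among the further members that were higher were *HSP82* (0.58, adjusted p = 3.41e-05), just inside 1.5-fold, *CPR6* (0.50), *AHA1* (0.40) and the regulator *HSF1* (0.32). *SBA1* (-0.26) was among those lower at the adjusted p alone. Genes with a reported role in yeast cell death were called only where the list shares *OYE2* and *OYE3* with the antioxidants. The metacaspase gene *MCA1* differed by 0.18, *AIF1* by -0.31 and *NUC1* by 0.49, with adjusted p-values of 0.00663, 0.00115 and 0.00270. Without some arrays, *SSA2* (0.54 to 0.58 without untreated replicate 3 or replicate pair 3) was no longer called. With arrays removed, *CTA1* (-0.64 to -0.59 without untreated replicate 1 or replicate pair 1) passed the thresholds. *HYR1* (-0.52) was not called after quantile normalization.

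Iron genes were called in both directions. Of 32 probe sets 3 rose and 4 fell. The siderophore transporter genes *SIT1* (-0.74), *ARN2* (-0.70) and *ENB1* (-0.88) and the heme oxygenase gene *HMX1* (-0.89) fell, while *ARN1* (0.79), of the same transporter family, and the reductase genes *FRE1* (0.71) and *FRE5* (0.79) rose. The regulator *AFT1* differed by 0.28 (adjusted p = 0.00116). *ISU1*, the scaffold gene of iron-sulfur cluster assembly, rose by 0.69 and was the sole call of the 18 in its list. The plasma membrane zinc transporter gene *ZRT2* fell by 1.10, and *ZPS1* (-0.64), which responds to zinc, fell too. In fits that lacked arrays, *ARN2* (-0.57 without aspirin-treated replicate 3 or untreated replicate 1), *ARN1* (0.58 without replicate pair 2) and *FRE1* (0.58 without replicate pair 2) were no longer called. On fewer arrays, *ZPS1* (-0.58 without untreated replicate 1) was no longer called.

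Of 15 probe sets for glycerol metabolism and water channels 4 rose and 1 fell, with a median of -0.12. *DAK2* (YFL053W), a dihydroxyacetone kinase, stood at 7.89, 7.71 and 8.08 with aspirin, against 5.89, 5.91 and 5.51 without it and rose 4.35-fold (adjusted p = 1.10e-07), and *HOR2*, a glycerol phosphatase gene, rose by 1.06. *AQY3* rose by 0.79 beside *AQY2*. *AQY1* (YPR192W) stood at 9.44, 9.04 and 9.41 with aspirin, against 11.62, 11.77 and 11.55 without it, well apart. In lipid synthesis *INM1*, which makes free inositol, rose by 1.38, while *INO1* (-0.71) and the methyltransferase gene *OPI3* (-0.65) fell, and in ergosterol synthesis *ERG3* (0.66) and *ERG4* (0.61) rose and *ERG13* (-0.69) fell out of 27 probe sets. After leaving out arrays, *ERG3* (0.54 to 0.58 without untreated replicate 2 or replicate pair 2) and *ERG4* (0.46 to 0.56 without aspirin-treated replicate 2 or untreated replicate 2 or replicate pair 2) were no longer called. *OPI3* (-0.56) was not called after quantile normalization.

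Ribosome and proteasome genes held few calls. Of 149 cytosolic ribosomal protein probe sets 1 was called, *RPS28B* (1.08), with a median of 0.01. Ribosome biogenesis had 2 calls of 93, *MAK21* (0.63) and *RPA135* (0.62), with a median of 0.22. At the adjusted p alone 21 were higher, a smaller share than the 27.2% of all tested probe sets. Ribosome biogenesis calls were 8 without untreated replicate 2 and 0 without untreated replicate 3. None of 34 proteasome probe sets was called by limma. At the adjusted p alone 4 were higher and 0 lower, both below the shares of all tested probe sets. Autophagy had *ICY2* (0.62) higher and *ATG4* (-0.59) and *ATG7* (-0.62) lower of 36. At the adjusted p alone 8 were higher and 16 lower, beside 27.2% and 25.1% of all tested probe sets. Vacuolar proteases and their inhibitors had 2 of 11 lower, the protease genes *CPS1* (-0.75) and *APE3* (-0.68). All 11 had a negative sign, the inhibitor genes *PBI2* (-0.15) and *PAI3* (-0.51) among them. Meiosis and sporulation genes had 6 lower, led by *SPS100* (-1.47) and *DMC1* (-0.90), and 1 higher, *SPO16* (0.87), of 48, or 2 higher without untreated replicate 3. Pheromone and mating genes had 4 higher, with *MF(ALPHA)2* (0.77) and *PRM2* (0.67), or 7 without either replicate 1, and 3 lower, with *MFA2* (-0.89) and *AGA2* (-0.68), of 38. When arrays were left out, *MAK21* (0.55 to 0.56 without untreated replicate 3 or replicate pair 3), *RPA135* (0.50 to 0.53 without untreated replicate 3 or replicate pair 3) and *ICY2* (0.39 to 0.72 without aspirin-treated replicate 2 or 3 or untreated replicate 1 or 3 or replicate pair 1 or 3, adjusted p up to 0.201) were no longer called. Without some arrays, *ATG4* (-0.58 to -0.51 without aspirin-treated replicate 2 or 3 or untreated replicate 3 or replicate pair 3), *ATG7* (-0.58 to -0.55 without aspirin-treated replicate 2 or replicate pair 2) and *SPO16* (0.58 without replicate pair 2) were no longer called. With arrays removed, *PRM2* (0.57 without replicate pair 3) and *AGA2* (-0.58 without replicate pair 2) were no longer called. *ICY2* (0.62, adjusted p = 0.0950) and *SPO16* (0.87, adjusted p = 0.0511) were not called with the methods' t-test after adjustment. *AGA2* (-0.58) was not called after quantile normalization. *ICY2* (0.62, adjusted p = 0.0669) was not called in the limma fit with the replicate block.

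The lists covered 1593 of the tested probe sets and 250 of the 685 calls, so 435 calls lay outside all of them. Several of the largest changes are among these, and 106 called probe sets had only a systematic name. *SET6* (YPL165C), a SET-domain protein, stood at 8.93, 8.90 and 8.84 in aspirin-treated EG110 cells, against 6.42, 6.25 and 6.08 in untreated EG110 cells, a 6.23-fold rise (adjusted p = 9.96e-09). The uncharacterised *YDR222W* (2.47), *YAL037C-A* (2.44) and *YER053C-A* (1.97) and the kinase gene *SKS1* (1.81) were also among the 15 largest rises. Among the 15 largest falls outside the lists were *BOP2* (-2.82) and *YLR012C* (-2.79), and *BOP2* (YLR267W) stood at 9.22, 9.18 and 9.26 with aspirin, against 11.83, 12.30 and 11.99 without it.

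Called genes often lay beside others called in the same direction. Of 5551 genes placed in the order of the RefSeq R64 annotation, 26.8% of the genes called lower (90 of 336) had a neighbour called lower, while 11.6% of all genes had one. Of the genes called higher, 18.8% (62 of 330) had a neighbour called higher, while 11.5% of all genes had one. Neighbouring genes can share an intergenic region or overlap, and the part of either in these shares was not tested. The longest run was 4 adjacent genes, *SLZ1* (-1.67), *YNL195C* (-1.18), *YNL194C* (-1.40) and *YNL193W* (-1.03), all lower. The runs of 3 that fell were *CTF13* (-0.90) with *SNO1* and *SNZ1*, *IRC24* (-1.29) with *HYR1* and *GTT1*, *NRG2* with *TIP1* and *BAP2*, and *YKU80* (-0.67) with *SPG4* and *ILV2* (-0.59). The runs of 3 that rose were *SMP1* (1.03), *YBR182C-A* (0.91) and *YPC1* (0.85), and *RAD27* (0.69), *ABF1* (0.64) and *KTI12* (0.87). *YAL037W* (1.69) rose beside *YAL037C-A*. In fits that lacked arrays, *ILV2* (-0.55 to -0.46 without aspirin-treated replicate 1 or untreated replicate 2 or replicate pair 1 or 2) was no longer called. *ILV2* (-0.57) was not called after quantile normalization.

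The same comparison was made in wild-type EG103 cells, the parent of EG110. There, 149 probe sets were called (2.61%), 100 higher and 49 lower, and 27 of them changed at least 2-fold. The difference between the strains, tested as an interaction, was called for 662 probe sets (11.6%), with the EG110 change more positive in 298 (5.21%) and more negative in 364 (6.37%). *PDR12* rose in both strains, by 4.25 in EG110 and 2.19 in EG103 cells, and the difference of 2.07 was itself called (adjusted p = 1.11e-04). With aspirin its mean was 13.92 in EG110 and 14.03 in EG103 cells, and without it 9.66 and 11.84. The strains thus differed in the untreated level of *PDR12* more than in the level reached with aspirin. *HXT4* (0.44 in EG103 cells, interaction 3.75), *PHO89* (-0.39, interaction -4.66) and *ADY2* (-0.27, interaction -4.08) were not called in EG103 cells and their differences between the strains were. In the septum list the interaction was called for 7 of 15 probe sets, all more positive in EG110, and in the permease list for 10 of 27, 8 of them more negative in EG110. Untreated levels of septum genes differed between the strains too. The mean of *DSE1* was 7.20 in EG110 and 10.08 in EG103 cells without aspirin, and 9.96 and 10.19 with it. For *SCW11* the means were 9.01 in EG110 and 9.79 in EG103 cells without aspirin, and 11.14 and 10.35 with it.

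Some genes were called in both strains with opposite signs, and their interaction was called. *YPS3* changed by 1.93 in EG110 against -0.59 in EG103, *TIP1* by -1.20 in EG110 against 1.18 in EG103, and *TIR1* by -1.41 in EG110 against 0.90 in EG103. The same held for *SSA3* (-1.01 in EG110 and 0.61 in EG103), *YOX1* (0.80 in EG110 and -0.67 in EG103) and *ARN1* (0.79 in EG110 and -0.70 in EG103). Others were called in both strains with the same sign, and their interaction was not called. They include *CTT1* (-1.05 in EG110 and -0.92 in EG103), *SPG1* (-1.23 in EG110 and -1.22 in EG103), *FMP45* (-1.09 in EG110 and -1.44 in EG103), *SIT1* (-0.74 in EG110 and -0.87 in EG103) and *TPO1* (0.62 in EG110 and 0.67 in EG103). *PHO84* differed by -0.95 in EG103 cells (adjusted p = 0.0711), and its interaction of -0.78 was not called (adjusted p = 0.244).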

How the data were processed

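Total RNA of 12 cultures was measured on Affymetrix Yeast Genome 2.0 arrays, of which 6 were EG110. The authors normalized the scans by RMA in AltAnalyze and deposited log2 values, which were used as they stand. Their fold changes and p-values in the same table were not used. Probe sets with an *S. cerevisiae* identifier were kept (5716 of 10928), of which 140 list several genes, and no filter on low values was applied. Groups came from the labels. The 4 groups were fitted in 1 model with limma 3.58.1 in R 4.3.3 (8 residual degrees of freedom), with Benjamini-Hochberg adjustment over all tested probe sets. Every adjusted p in the text is limma's, except where the methods' t-test is named. Errors of log2 differences are moderated standard errors. The interaction is the EG110 difference minus the EG103 difference. Calls required 1.5-fold or more at an adjusted p under 0.05. An exact permutation test of 3 arrays against 3 cannot go below p = 0.1, and the number of arrays limits the precision.

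Named genes are the most changed called members of each gene list, the regulators in those lists, and the 15 largest rises and falls. Those rises and falls were taken from called probe sets without overlap between the groups. Their separation was therefore fixed by the choice. A few genes that meet this rule are not reported here. The genes and the 62 lists were chosen with earlier results of these data known. The lists were written from general knowledge of yeast biology, 1 of them, of mitochondrial genome genes, had no probe set with an identifier, and no set test was run. Symbols and gene order came from the RefSeq R64 table, which matched 5566 single-gene identifiers. The model was tested on simulated data with known changes. Deviations of EG110 arrays with the same replicate number correlated across probe sets at 0.229, 0.142 and 0.343. In EG103 these values were 0.0166, 0.485 and 0.45. Aspirin-treated replicate 2 of EG110 correlated more with untreated replicate 1 (0.221) than with its own number. In EG103, aspirin-treated replicate 1 correlated more with untreated replicate 2 (0.182) than with its own number. The remaining aspirin-treated arrays correlated most with their own number. These values do not establish pairing. Equal numbers were still treated as pairs, and blocking on the number was kept as an alternative fit. The other alternatives were another normalization, filter, test, threshold or set of arrays. Scan batches were not given in the sources used here. Figures were drawn with matplotlib 3.10.9.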

Additional observations from a re-analysis of the deposited data

Results flagged for a closer look

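The results below are those in which the aspirin effect differed between EG110 and EG103 cells by the interaction test. The difference was called for 662 of 5716 tested probe sets, and for 457 of the 685 called in EG110 cells. Those 685 were selected on the EG110 difference, which also enters the interaction, so the selection favours a called interaction among them.

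All 30 of the largest changes in EG110 cells were among them, and 29 of these are given here. They were chosen by the EG110 difference, which is also part of the interaction. A called interaction was therefore favoured unless EG103 cells changed alike, and the count is no independent evidence of a strain difference. On the log2 scale, the interaction (EG110 minus EG103) of those that rose was 2.07 for *PDR12*, 3.75 for *HXT4*, 2.65 for *DSE1*, 2.18 for *MIG2*, 2.84 for *SET6*, 2.19 for *YDR222W* and 2.21 for *YAL037C-A*. It was 1.94 for *DSE2*, 1.57 for *SCW11*, 1.93 for *DAK2*, 1.49 for *DSE4*, 1.58 for *YER053C-A*, 2.52 for *YPS3* and 0.98 for *SKS1*. For those that fell it was -4.66 for *PHO89*, -4.08 for *ADY2*, -1.65 for *SUL1*, -2.52 for *BOP2*, -2.50 for *YLR012C*, -2.22 for *SPL2*, -2.66 for *ATO3* and -2.38 for *DIP5*. It was -2.03 for *SPG4*, -2.89 for *AQY1*, -2.25 for *SHH4*, -1.93 for *SNZ1*, -2.24 for *CRC1*, -1.93 for *SNO1* and -1.75 for *ALP1*.

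In 20 probe sets the strains were called with opposite signs, of 64 called in both. Of these, the interaction was -2.68 for *PMA2*, 2.27 for *SUL2*, -2.38 for *TIP1*, -2.31 for *TIR1*, -1.79 for *TIR3*, -1.61 for *SSA3*, -1.61 for *HXT14*, 1.47 for *YOX1*, 1.49 for *ARN1* and 1.44 for *FRE5*.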

How the results depend on the processing

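Leaving out the 25% of features that were dimmest on average gave 418 calls in EG110 cells (195 higher and 223 lower) and 401 for the interaction. A threshold of 2-fold gave 197 (80 higher and 117 lower) and 206, and no fold threshold gave 2987 (1553 higher and 1434 lower) and 1894; each follows from fewer probe sets tested or another threshold. Leaving out arrays gave 664 to 720 calls (320 to 363 higher and 336 to 374 lower) and 580 to 716 for the interaction. Adding the replicate number as a block gave 684 calls (337 higher and 347 lower), 683 of them shared, and 662 for the interaction, and among named genes 1 call was lost, *ICY2* (0.62, adjusted p = 0.0669), and 1 gained, *TPO3* (0.64, adjusted p = 0.0487). A block within each strain, chosen after seeing the data, gave 686. The other alternatives gave 636 to 700 calls in EG110, with 635 shared by the methods' t-test after adjustment. That test was not run for the interaction, since it compares 2 groups. Of 240 called genes named, 190 were called in every refit at 1.5-fold that tested them. The fit without the dimmest 25% did not test dim genes such as *DAK2*, and these were not counted as lost. Uncalled genes near 0 changed sign when arrays were left out: *SOD2* (-0.034 to 0.21), *HXT2* (-0.088 to 0.92), *SNF1* (-0.089 to 0.011), *ADR1* (-0.038 to 0.042), *JEN1* (-0.067 to 0.050) and *VTC3* (-0.16 to 0.031). Changes under about 1.5-fold were often detectable with 3 arrays, since 52.3% of tested probe sets passed the adjusted p alone. RNA levels here do not give protein levels, and 1 deletion strain and its parent were measured at 1 time point.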
